A study of Mus musculus with 12 samples.

Results

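The genes described here encode the collagens, the laminins and the other large proteins of basement membranes. They were taken from the deposited P3 table as every protein-coding gene whose symbol is that of a collagen chain (Col followed by type and chain number), a laminin chain (Lama, Lamb or Lamc), a nidogen (Nid1, Nid2), perlecan (Hspg2), agrin (Agrn) or fibronectin (Fn1). The rule used no measured value and found 60 genes of 31091 in the table. Of these, 23 were placed in the basement membrane division, namely 6 collagen IV chains, 11 laminin chains and a group of 6 with the nidogens, perlecan, agrin, Col15a1 and Col18a1. The fibrillar collagens numbered 11, and the remaining 26 were Fn1 and the collagens of other families. Fn1 was kept out of the basement membrane division because fibronectin is also a component of interstitial matrix.

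The study sequenced RNA from granule cell progenitors, the dividing cells that give rise to cerebellar granule neurons, at postnatal day 3 (P3) and day 6 (P6). At P3 there were 3 libraries from mice labelled WT, called control in the sample titles, and 3 from mice with a Znhit3 conditional knockout (cKO). The P6 libraries were not analysed here. The labels give neither the strain and sex of the mice nor the Cre line that deletes Znhit3, nor whether the WT mice carry floxed alleles, nor how the progenitors were isolated, nor whether a library came from 1 animal or a pool. The p-values below therefore measure the spread between these libraries, which may be technical. Xist, expressed from an inactive X chromosome, and Y-linked genes were both present in every library, so each library held RNA of both sexes. Levels are given as FPKM, fragments scaled to gene length and to the library's counted reads. Comparisons of level between genes, and ranks by level, therefore depend on the deposited gene lengths.

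A basement membrane is a thin sheet of extracellular matrix that lies under the pial surface of the cerebellum, around the endothelium and pericytes of its vessels and under epithelia. Laminins are trimers of an alpha, a beta and a gamma chain that form a first network at the cell surface, collagen IV trimers form a second, covalently cross-linked network, and nidogens, perlecan and agrin tie the networks to each other and to cells. Fibrillar collagens form the fibres of interstitial matrix, which in brain is largely made by fibroblasts of the meninges. Granule cell progenitors lie directly beneath the pial basement membrane, where their laminin receptors meet it, while most of its proteins are made by meningeal, vascular and glial cells.

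The 6 libraries held 29119803 to 52961445 counted reads. Znhit3, the targeted gene, measured 9.15, 8.62 and 8.58 FPKM in control replicates 1 to 3 and 4.03, 4.01 and 4.57 FPKM in cKO replicates 1 to 3, and the groups did not overlap. It fell with a log2 difference of -0.91 ± 0.06 (SE) and an adjusted p of 0.00024 from limma, and p = 0.1 from the two-sided exact permutation test, the lowest that 3 against 3 libraries allow. Differences between the group means were taken on log2(FPKM + 1), positive where cKO was higher, so that low levels appear less changed than they were. A gene was called at an adjusted p under 0.05 over all 13538 genes whose mean reached 1 FPKM. Of these genes 13.4% were called higher in cKO and 5.74% lower, and 27.3% had all 3 cKO values above all 3 control values while 13.2% had them all below. The median difference over them was 0.03. The called genes split into 1813 higher and 777 lower, against 2448 and 549 with TPM scaling and 1083 and 823 with quantile normalization. Fits that left out 1 library gave 859 to 1487 higher and 348 to 708 lower.

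Most tested genes of the basement membrane were higher in the cKO libraries, 3 fibrillar collagen genes were higher too, and 1 gene each of collagens VIII and IX was lower. In bulk libraries more cells that express a gene and more RNA per cell cannot be told apart. Of the 60 members 41 passed the filter on low values, and of those 20 were called higher, 2 lower and 19 were not called, beside the 13.4% and 5.74% of all tested genes. Among the basement membrane members 18 of 23 were tested, and 13 rose and none fell, with a median difference of 0.32. Fibrillar collagens gave 3 rises and no fall among 9 tested, with a median of 0.16, and the other members 4 rises and 2 falls among 14, with a median of 0.12. The fibrillar median was 0.083 with quantile normalization and 0.10 with the length trend removed. That of the last division was 0.078 without cKO replicate 1, 0.078 with the length trend removed, 0.051 with quantile normalization and -0.030 at a minimum of 5 FPKM, where its sign changed. The ratio of the cKO to the control mean of tested members lay between 0.646 and 1.57. The highest was that of Col28a1, which was not called and whose control mean of 0.835 FPKM was below the filter. Of the 13 called basement membrane genes 12 were called in each of the 6 fits that leave out a library, and so were the 3 called fibrillar collagens. None of the 6 called genes of the last division was called in each of them. In the authors' deposited table, which comes from another test, 22 of the 41 tested members were higher and 4 lower at an adjusted p under 0.05, against 12.1% and 13.4% of all genes tested here, and all 22 genes called here were among them with the same direction. In the same libraries the summed level of endothelial markers rose 1.69-fold and that of pericyte and smooth muscle markers 1.47-fold, and their part in the members' rise was not tested.

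**Figure D1:**
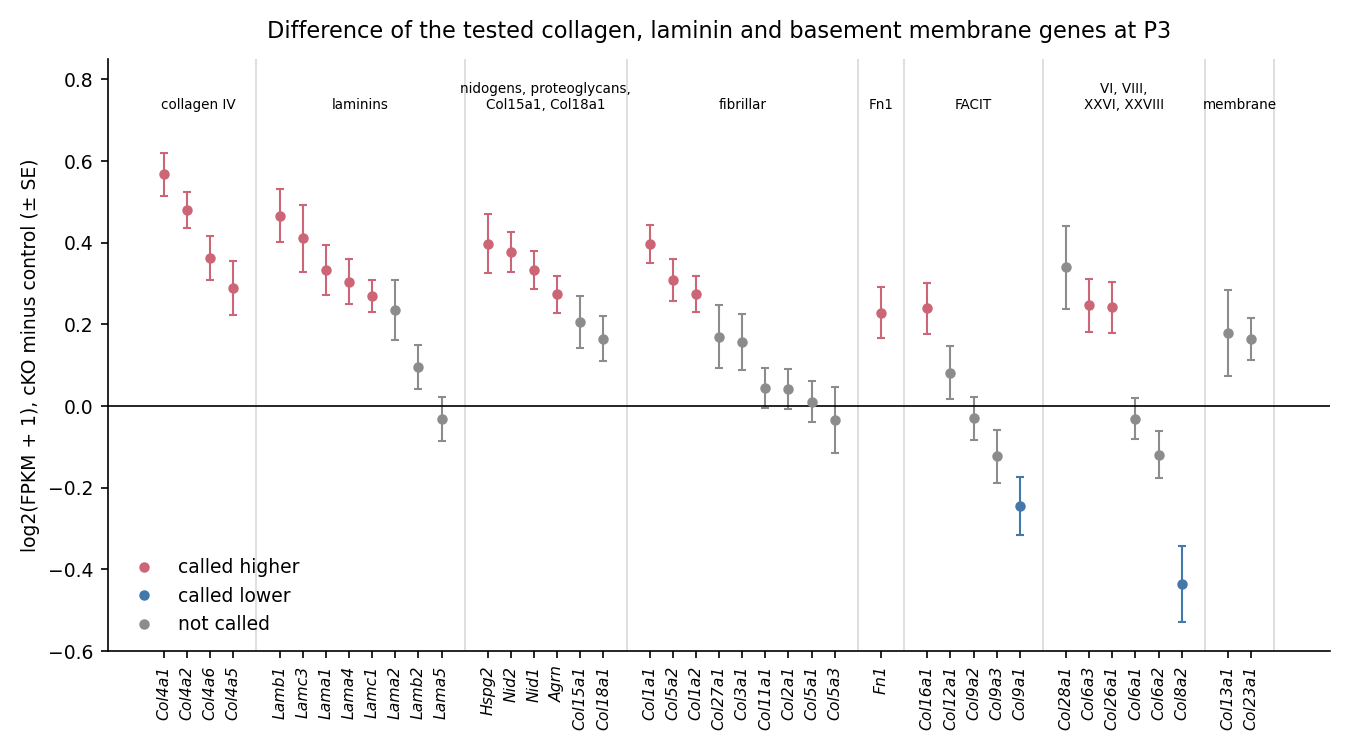
Difference of each tested member between cKO and control libraries at P3, on the log2(FPKM + 1) scale, with its standard error, grouped by family; colour shows whether limma called the gene. All 4 tested collagen IV genes lie above 0 with Col4a1 at 0.57, while Col8a2 at -0.43 and Col9a1 at -0.24 are the 2 genes called lower.

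Collagen IV is the network-forming collagen of basement membranes, and its trimer of 2 alpha 1 chains and an alpha 2 chain is the form found in nearly all of them. Col4a1 (ENSMUSG00000031502) lies on chromosome 8, 11248423 to 11362826, minus strand, by the position in the deposited table. It measured 30.1, 32.4 and 33.3 FPKM in control replicates 1 to 3 and 45.6, 49.1 and 48.6 FPKM in cKO replicates 1 to 3. Each cKO library was above each control library, and the mean rose from 31.9 ± 1.66 to 47.8 ± 1.89 FPKM (SD, n = 3), 1.5-fold, with a log2 difference of 0.57 ± 0.05 (SE) and an adjusted p of 0.00084. On the log2(FPKM + 1) scale this was the largest difference among the 41 tested members. The ratio of means was larger for Col28a1, at 1.57, but that gene reached the filter through the cKO libraries alone and was not called. Col4a2 (ENSMUSG00000031503, chromosome 8, 11362805 to 11499287, plus strand) encodes the partner chain and measured 24.3, 23.4 and 23.3 FPKM in controls and 32.5, 34.9 and 33 FPKM in cKO. It rose 1.41-fold without overlap of the groups (log2 difference 0.48, SE 0.04, adjusted p of 0.00082). The ratio of Col4a1 to Col4a2 FPKM was 1.24, 1.38 and 1.43 in the control libraries and 1.4, 1.41 and 1.47 in the cKO libraries. These ratios overlapped between the groups.

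Col4a1 and Col4a2 lie head to head on opposite strands, and their deposited gene bodies overlap by 22 bases at the 2 start sites. The promoter windows are shown because both genes rose and share this region. They are RefSeq windows on GRCm38.p6, each from 250 bases before to 50 bases after the start, chr8:11312777-11313076 on the minus strand for Col4a1 and chr8:11312555-11312854 on the plus strand for Col4a2, written 5′ to 3′ on the gene's own strand. Capitals mark the 78 bases that the windows share, which read as reverse complements of each other:
Col4a1: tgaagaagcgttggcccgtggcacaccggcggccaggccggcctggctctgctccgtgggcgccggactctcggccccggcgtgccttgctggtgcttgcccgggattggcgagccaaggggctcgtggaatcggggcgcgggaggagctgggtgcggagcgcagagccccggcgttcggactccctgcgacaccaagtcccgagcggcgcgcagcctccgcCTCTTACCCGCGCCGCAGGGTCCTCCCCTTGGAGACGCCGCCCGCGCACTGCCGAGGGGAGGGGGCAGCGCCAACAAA
Col4a2: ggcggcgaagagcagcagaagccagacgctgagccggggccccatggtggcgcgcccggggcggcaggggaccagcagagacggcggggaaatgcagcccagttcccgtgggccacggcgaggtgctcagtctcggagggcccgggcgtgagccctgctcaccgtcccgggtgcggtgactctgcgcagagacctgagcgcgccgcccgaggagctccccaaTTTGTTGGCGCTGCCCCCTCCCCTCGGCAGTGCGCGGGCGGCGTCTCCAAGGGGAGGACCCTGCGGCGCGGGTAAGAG
The annotated starts, 11312826 for Col4a1 and 11312805 for Col4a2, are 21 bases apart on GRCm38.p6, where positions differ from the deposited ones. The GC content of the windows was 74% and 73.7%, against a median of 52.7% over all 32851 windows of this length. Without a stated use of strand in counting, reads from the overlapping bases cannot be assigned to either gene, but they are few beside the deposited lengths of 7464 and 6619 bases.

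Promoter windows of 300 bases were found in the RefSeq table for 43 of the 60 members, 48 windows in all on GRCm38.p6. They were searched for the GC box GGGCGG, the CCAAT box CCAAT and the TATA box TATAAA on both strands, with overlapping matches allowed. A GC box was in 62.5% of member windows and 35.7% of all windows, a CCAAT box in 31.2% and 37.4%, and a TATA box in 10.4% and 13.6%. None of the 18 basement membrane windows held TATAAA. Of 12 windows of members called higher 11 held a GC box and 7 a CCAAT box, and of 18 windows of tested members that were not called 11 and 3 did. Windows that overlap, as those of Col4a1 and Col4a2, count separately, and median GC content was 64.2% and 61.7% in these sets. These sets were formed by the calls, no test was made, and a match of letters is no evidence of a bound site. The windows of Nid1 (chr13:13437352-13437651, plus strand), the most abundant member, of Lamb1 (chr12:31265043-31265342, plus strand), the called laminin with the largest difference on the log2(FPKM + 1) scale, and of Col8a2 (chr4:126286544-126286843, plus strand), which fell, are given with GC and CCAAT boxes of either strand in capitals:
Nid1: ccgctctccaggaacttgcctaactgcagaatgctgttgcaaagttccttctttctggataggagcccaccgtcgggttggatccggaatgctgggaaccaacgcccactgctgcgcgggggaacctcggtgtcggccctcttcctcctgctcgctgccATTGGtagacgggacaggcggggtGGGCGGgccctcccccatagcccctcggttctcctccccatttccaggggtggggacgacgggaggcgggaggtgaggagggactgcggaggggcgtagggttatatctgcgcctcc
Lamb1: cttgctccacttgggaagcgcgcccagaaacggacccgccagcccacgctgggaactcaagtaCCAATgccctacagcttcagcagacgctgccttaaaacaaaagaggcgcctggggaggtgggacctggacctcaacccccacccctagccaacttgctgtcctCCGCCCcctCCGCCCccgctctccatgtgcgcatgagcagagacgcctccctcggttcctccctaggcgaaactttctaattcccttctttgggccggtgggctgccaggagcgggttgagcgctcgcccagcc
Col8a2: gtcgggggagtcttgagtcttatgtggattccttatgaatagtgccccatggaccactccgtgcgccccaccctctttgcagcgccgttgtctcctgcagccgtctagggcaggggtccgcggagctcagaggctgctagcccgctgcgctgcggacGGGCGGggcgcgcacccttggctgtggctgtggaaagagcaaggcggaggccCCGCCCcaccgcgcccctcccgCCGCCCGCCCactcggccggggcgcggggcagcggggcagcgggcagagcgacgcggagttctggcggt
Nid1 held 1 GC box and 1 CCAAT box, Lamb1 2 and 1, and Col8a2 4 and 0. The GC box was thus present in windows of genes that rose and of one that fell.

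Col4a5 and Col4a6 encode chains of the specialised collagen IV networks and form a second head-to-head pair, on the X chromosome, with 1343 bases between their RefSeq starts on GRCm38.p6 and no shared window. Col4a5 measured 7.97, 7.5 and 7.41 FPKM in controls and 8.62, 10.2 and 9.85 FPKM in cKO, and rose with an adjusted p of 0.022. The groups did not overlap, but the call was lost without control replicate 2 or 3 or without cKO replicate 2 or 3 (adjusted p of 0.064 to 0.078). Col4a6 was lower in level, at 2.67, 2.57 and 2.73 FPKM in controls and 3.75, 3.72 and 3.62 FPKM in cKO. It rose 1.39-fold with an adjusted p of 0.0043 and was called in each fit that left out a library. Xist, which is expressed from an inactive X chromosome, fell from 53.7 to 24 FPKM in the same libraries, and the Y-linked genes Ddx3y, Eif2s3y, Kdm5d and Uty rose, with Ddx3y going from 5.28 to 12.4 FPKM. The levels of these sex-linked genes thus moved with genotype, without overlap of the groups, and this applies to the comparison of every member. The part of sex in the differences of the X-linked pair and of the other members was not tested. The remaining chains, Col4a3 and Col4a4, typical of kidney and lung membranes, were low, at 0.0921 and 0.0712 FPKM and at 0.127 and 0.123 FPKM, and were below the filter. Col4a1 and Col4a2 together made up 83.5, 84.4 and 84.5 in the control libraries and 86.1, 85.6 and 85.6 in the cKO libraries, as a percentage of all collagen IV FPKM. The share was slightly larger in each cKO library than in each control library.

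**Figure D2:**
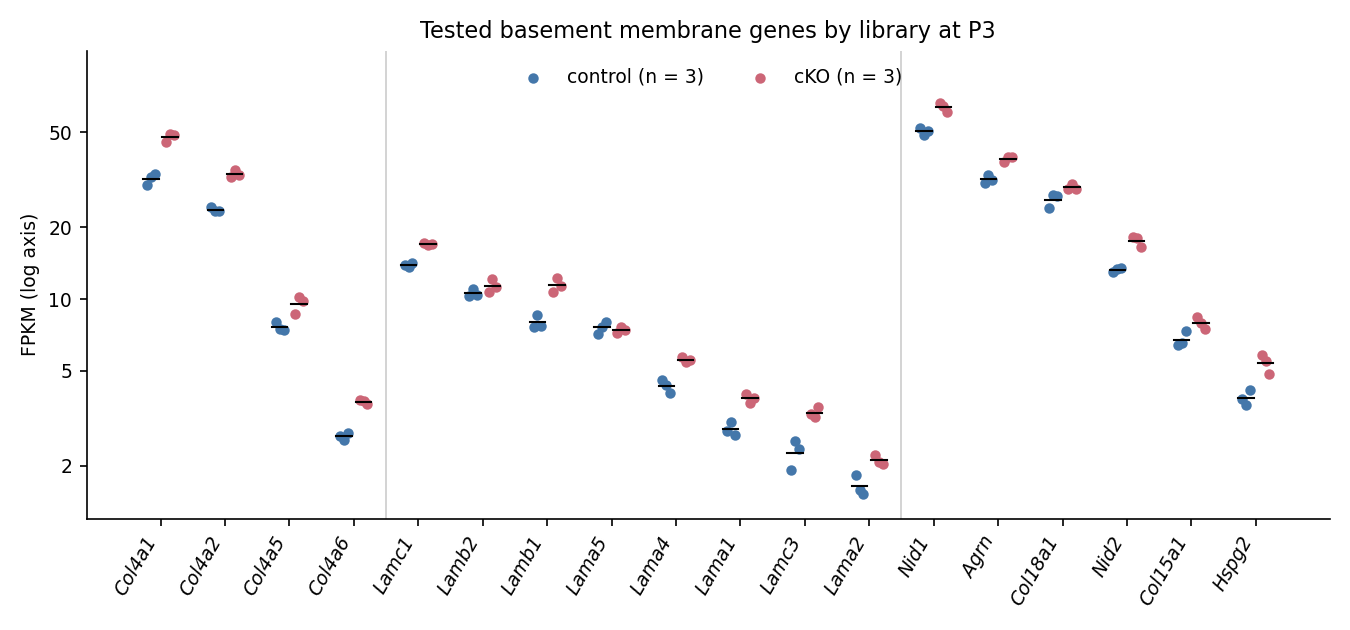
FPKM on a log axis of the 18 tested basement membrane genes in each of the 3 control and 3 cKO libraries at P3, with group means as bars; vertical lines separate collagen IV, the laminins and the last group. The cKO points lie above all control points for 16 genes, beside 27.3% of all tested genes, and only Lamb2 and Lama5 overlap.

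Among the laminins 8 of 11 chains were tested, and 5 rose and none fell, beside 13.4% and 5.74% of all tested genes. The gamma 1 chain gene Lamc1, whose product is part of most laminin trimers, was the most abundant at 13.9, 13.7 and 14.2 FPKM in controls and 17.2, 16.8 and 17 FPKM in cKO. It rose 1.22-fold with no overlap (log2 difference 0.27, SE 0.04, adjusted p of 0.004). Lamb1, the beta 1 chain of laminins of early and vascular membranes, measured 7.66, 8.61 and 7.7 FPKM in controls and 10.6, 12.2 and 11.4 FPKM in cKO and had the largest laminin difference on the log2(FPKM + 1) scale, 0.47 ± 0.06 (SE) with an adjusted p of 0.0034. Lamb2, the beta 2 chain, measured 10.3, 11 and 10.4 FPKM in controls and 10.8, 12.1 and 11.2 FPKM in cKO. These values overlapped, and Lamb2 was not called (adjusted p of 0.24). The ratio of Lamb1 to Lamb2 FPKM was 0.745, 0.785 and 0.738 in the control libraries and 0.991, 1.01 and 1.01 in the cKO libraries. In control libraries Lamb2 was thus the more abundant beta chain, and in cKO libraries the 2 chains were about level. Lamc3, the gamma 3 chain, measured 1.91, 2.55 and 2.35 FPKM in controls and 3.28, 3.21 and 3.51 FPKM in cKO. It rose 1.47-fold, a larger ratio than the 1.43 of Lamb1, with an adjusted p of 0.014. Its call was lost in the fit with no filter on low values, which tests more genes.

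The alpha chains decide where a laminin is deposited and which receptors it binds. Lama4, the alpha 4 chain typical of endothelial membranes, measured 4.58, 4.35 and 4.05 FPKM in controls and 5.71, 5.47 and 5.55 FPKM in cKO, and rose with an adjusted p of 0.0091. Lama1, the alpha 1 chain of the pial membrane and of early embryonic membranes, measured 2.8, 3.05 and 2.69 FPKM in controls and 3.99, 3.67 and 3.86 FPKM in cKO. It rose as well, with an adjusted p of 0.0095, and neither gene's groups overlapped. Lama2, the alpha 2 chain found around muscle, glial endfeet and vessels, measured 1.82, 1.58 and 1.52 FPKM in controls and 2.22, 2.07 and 2.02 FPKM in cKO. Its groups did not overlap, but the difference of 0.23 ± 0.07 (SE) missed the threshold with an adjusted p of 0.058, whereas the authors' deposited table gives an adjusted p of 0.0045. Lama5, the alpha 5 chain of mature vascular and epithelial membranes, had the highest alpha chain FPKM, at 7.16, 7.62 and 8.03 in controls and 7.19, 7.65 and 7.39 in cKO. Its groups overlapped, and its difference was -0.03 ± 0.05 (SE), with an adjusted p of 0.7. Summed over the 5 chains, alpha chain FPKM went from 16.6 ± 0.165 to 19.1 ± 0.0981 (SD, n = 3), beta from 18.6 ± 0.896 to 22.9 ± 1.48 and gamma from 16.2 ± 0.34 to 20.4 ± 0.212. Each sum was higher in all cKO than in all control libraries. As a percentage of the alpha chain sum, Lama5 took 43.3, 45.4 and 48.7 in the control libraries and 37.3, 40.1 and 38.7 in the cKO libraries. This share was smaller in every cKO library, and those of Lama4 and Lama1 were larger in every cKO library, at 26.1% and 29.1% on average for Lama4 and 17.1% and 20.1% for Lama1. Such shares do not change with a scaling factor per library. Their size, and the rank of Lama5, depend on the deposited lengths, 11388 bases for Lama5, 12068 for Lama4 and 16605 for Lama2. Lama3 and Lamb3, for an alpha and a beta chain of epithelial laminins, stayed at or below 0.259 FPKM in every library and were not tested.

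**Figure D3:**
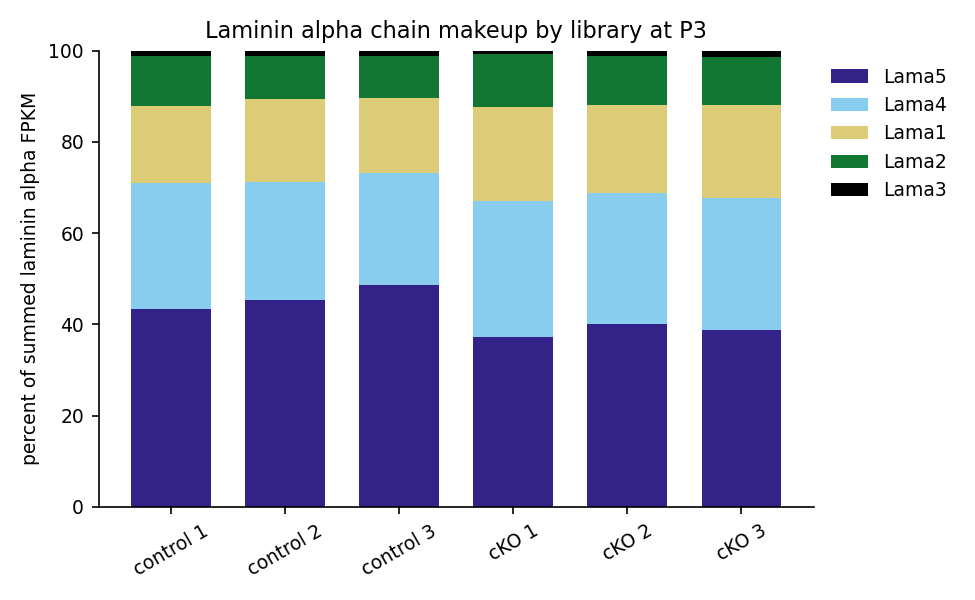
Makeup of the summed laminin alpha chain FPKM in each of the 6 P3 libraries, in percent, with 1 bar per library and 1 colour per chain gene. The Lama5 part lies between 43.3% and 48.7% in control and between 37.3% and 40.1% in cKO libraries. The size of each part depends on the deposited gene lengths.

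The linking proteins and proteoglycans were all tested, and 4 of 6 rose, beside 13.4% of all tested genes. Nid1, whose promoter window is given above and whose product nidogen-1 bridges laminin and collagen IV, was the most abundant of all 60 members at 52, 48.8 and 50.5 FPKM in controls and 66.1, 64.5 and 61 FPKM in cKO. Its mean rose from 50.4 ± 1.6 to 63.9 ± 2.61 FPKM (SD, n = 3) without overlap (log2 difference 0.33, SE 0.05, adjusted p of 0.0035). Nid2, for nidogen-2, measured 12.9, 13.4 and 13.5 FPKM in controls and 18.1, 17.9 and 16.6 FPKM in cKO and rose 1.32-fold with an adjusted p of 0.0025. The Nid1 to Nid2 ratio overlapped between groups, with means of 3.8 and 3.64. Agrn encodes agrin, a heparan sulfate proteoglycan that binds laminin and dystroglycan, and measured 30.7, 33.2 and 31.6 FPKM in controls and 37.4, 39.5 and 39.4 FPKM in cKO. It rose 1.22-fold with an adjusted p of 0.0067. Hspg2, for perlecan, the large heparan sulfate proteoglycan of vascular membranes, measured 3.79, 3.6 and 4.14 FPKM in controls and 5.83, 5.48 and 4.86 FPKM in cKO. It rose 1.4-fold (adjusted p of 0.0095), and the lowest cKO value was above the highest control value.

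Col18a1 and Col15a1 encode the multiplexin collagens, which sit at the border between the membrane and the interstitial matrix, and the C-terminal fragment of collagen XVIII is endostatin. Col18a1 measured 24.1, 27.3 and 27 FPKM in controls and 28.9, 30.4 and 28.8 FPKM in cKO, and Col15a1 measured 6.39, 6.52 and 7.32 FPKM in controls and 8.4, 7.92 and 7.46 FPKM in cKO. In both genes the cKO values lay above the control values, as they did in 27.3% of all tested genes, but neither difference passed. It was 0.17 ± 0.06 (SE) for Col18a1 with an adjusted p of 0.073, and 0.21 ± 0.06 (SE) for Col15a1 with an adjusted p of 0.057. Without control replicate 3 Col15a1 was called at an adjusted p of 0.043. Summed over its 23 genes, the basement membrane division rose from 249.9 ± 3.73 to 319.9 ± 6.47 FPKM (SD, n = 3), a ratio of 1.28. Col4a1, Col4a2, Nid1 and Agrn alone made up 55.2% of it in control and 57.5% in cKO libraries.

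Among the fibrillar collagens Col1a1, Col1a2 and Col5a2 rose, and the others tested, with Col5a1 and Col5a3 of collagen V among them, did not pass. Col1a1, the alpha 1 chain of collagen I, the main collagen of meninges and connective tissue, measured 12.3, 12.7 and 13.5 FPKM in controls and 16.9, 17.6 and 17.1 FPKM in cKO. It rose 1.34-fold, from 12.8 ± 0.617 to 17.2 ± 0.351 FPKM (SD, n = 3), with a log2 difference of 0.40 ± 0.05 (SE) and an adjusted p of 0.0018. Col1a2, its alpha 2 chain, measured 14.6, 15.4 and 14.7 FPKM in controls and 17.6, 18.8 and 18.3 FPKM in cKO and rose 1.22-fold (adjusted p of 0.0057). The ratio of Col1a1 to Col1a2 FPKM was 0.846, 0.823 and 0.917 in the control libraries and 0.957, 0.937 and 0.936 in the cKO libraries. It stayed below 1 in all libraries and was higher in each cKO library. Its size depends on the deposited lengths of 6563 bases for Col1a1 and 12426 for Col1a2. As a ratio of RNA levels it is no measure of the chains in the collagen I protein. Col5a2, a chain of collagen V, which nucleates collagen I fibrils, measured 6.21, 6.3 and 5.8 FPKM in controls and 7.41, 7.96 and 8.02 FPKM in cKO and rose with an adjusted p of 0.0073.

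Col3a1, for the collagen of distensible tissues such as vessel walls, was the most abundant fibrillar gene at 22.5, 23.2 and 22.7 FPKM in controls and 22.7, 27.4 and 26.8 FPKM in cKO. Here cKO replicate 1 lay within the control values and the other two above them, and the gene was not called (log2 difference 0.16, SE 0.07, adjusted p of 0.14). Without cKO replicate 1 its adjusted p was 0.016. Col3a1 and Col5a2 are neighbours on chromosome 1 in opposite orientation, 24614 bases apart in the deposited positions. Col5a1, the other main chain of collagen V, measured 5.04, 5.34 and 5.16 FPKM in controls and 5.45, 5.24 and 4.995 FPKM in cKO, and was not called (adjusted p of 0.9). The cartilage collagen genes Col2a1 and Col11a1 went from 6.01 to 6.22 FPKM and from 4.57 to 4.75 FPKM on average, with differences of 0.04 ± 0.05 (SE) and 0.04 ± 0.05 (SE) and neither called. Col27a1 and Col5a3 were measured at 1.75 and 2.1 FPKM and at 1.2 and 1.16 FPKM and were not called either (adjusted p of 0.16 and 0.8). Summed, the 11 fibrillar genes went from 76.2 ± 1.54 to 89.4 ± 3.96 FPKM (SD, n = 3), a ratio of 1.17. The basement membrane sum exceeded the fibrillar sum by a factor of 3.3, 3.25 and 3.3 in the control libraries and 3.73, 3.54 and 3.48 in the cKO libraries. This factor was larger in each cKO library, which is a description of the chosen genes and not a test.

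**Figure D4:**
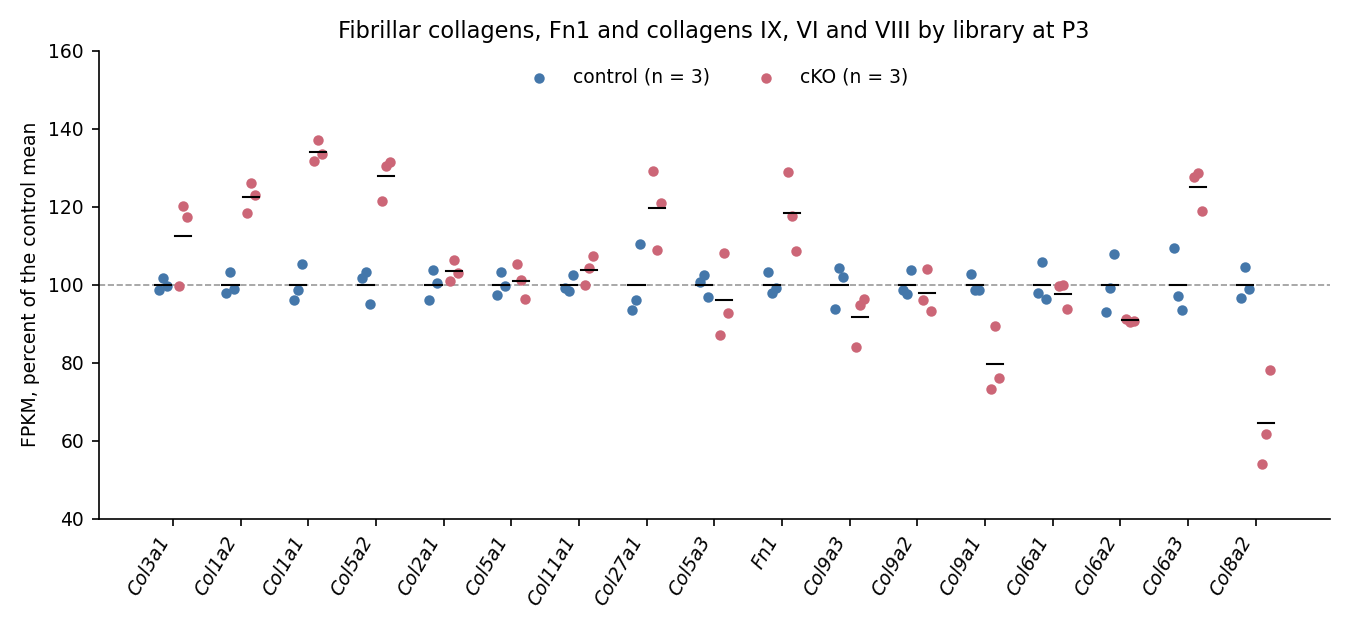
FPKM of the tested fibrillar collagens, Fn1 and collagens IX, VI and VIII in each library at P3, as a percentage of the gene's control mean, with group means as bars. Col1a1, Col1a2 and Col5a2 lie above the control points in all 3 cKO libraries, and Col9a1 and Col8a2 lie below them.

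Fn1 encodes fibronectin, a glycoprotein that links integrins to collagens and is rich around growing vessels. It measured 18.2, 17.2 and 17.5 FPKM in controls and 22.7, 20.7 and 19.2 FPKM in cKO, without overlap, and rose 1.18-fold with an adjusted p of 0.039. Leaving out any library other than cKO replicate 3 ended the call, with an adjusted p of 0.06 to 0.11.

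Collagen VI forms beaded filaments next to basement membranes from 3 main chains, of which 1 was called. Col6a3 measured 3.17, 2.81 and 2.71 FPKM in controls and 3.7, 3.72 and 3.44 FPKM in cKO and rose with an adjusted p of 0.036, a call lost without any 1 of 5 libraries, all but control replicate 1 (adjusted p of 0.055 to 0.11). Col6a1 measured 13.9, 15 and 13.7 FPKM in controls and 14.2, 14.2 and 13.3 FPKM in cKO with overlapping groups and an adjusted p of 0.7. Col6a2 measured 6.41, 6.83 and 7.43 FPKM in controls and 6.29, 6.23 and 6.25 FPKM in cKO. All its cKO values lay just below the control values, as in 13.2% of all tested genes, and the difference of -0.12 ± 0.06 (SE) was not called (adjusted p of 0.17), while the authors' deposited table lists Col6a2 as lower with an adjusted p of 0.03. Col26a1 measured 3.9, 4.6 and 4.31 FPKM in controls and 5.29, 5.37 and 5.002 FPKM in cKO. It rose with an adjusted p of 0.034, and the call was lost without any library other than control replicate 2 (adjusted p of 0.055 to 0.11). Col28a1, which in mouse is typical of peripheral nerve glia, measured 1.02, 0.859 and 0.624 FPKM in controls and 1.42, 1.29 and 1.23 FPKM in cKO. Its control mean was below 1 FPKM, so it reached the filter through the cKO libraries alone, and it was not called (adjusted p of 0.052, and 0.045 without control replicate 1). The authors' deposited table lists Col28a1 as higher with an adjusted p of 0.014.

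The larger of the 2 called falls was in collagen VIII, a short-chain network collagen best known from corneal and vascular endothelium. Col8a2 measured 2.55, 2.76 and 2.61 FPKM in controls and 1.43, 1.63 and 2.07 FPKM in cKO. The groups did not overlap, and the mean fell from 2.64 ± 0.108 to 1.71 ± 0.328 FPKM (SD, n = 3), to 64.6% of control, with a log2 difference of -0.43 ± 0.09 (SE) and an adjusted p of 0.018. The adjusted p was 0.051 to 0.063 without cKO replicate 2, control replicate 2 or control replicate 3. Col8a1, its partner chain, measured 0.95, 0.763 and 1.01 FPKM in controls and 0.405, 0.561 and 0.509 FPKM in cKO. With a mean below 1 FPKM it was not tested, and in the fit without that filter its difference was -0.35 with an adjusted p of 0.08. The authors' deposited table gives log2 fold changes of -0.69 for Col8a2 and -0.94 for Col8a1, with adjusted p-values of 4.9e-05 and 1.4e-05. In the same libraries choroid plexus markers were lower: 5 of 7 tested fell (Ttr, Folr1, Clic6, Aqp1 and Sostdc1), beside 5.74% of all tested genes. Otx2 was called higher, beside 13.4% of all tested genes, a call held only in the fit without control replicate 3 among those that leave out a library. The sum of the 8 markers was 1361 to 1448 FPKM in control and 649.6 to 728 FPKM in cKO libraries. Their part in the collagen VIII falls was not tested.

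Collagens of the FACIT family attach to the surface of fibrils. Collagen IX, known from cartilage and the eye, was represented by all 3 of its genes. Col9a3, the most abundant collagen gene in the control libraries, measured 38.6, 42.8 and 41.9 FPKM in controls and 34.5, 39 and 39.6 FPKM in cKO, with overlapping groups and an adjusted p of 0.21, while the authors' deposited table lists Col9a3 as lower with an adjusted p of 0.02. Col9a1 measured 3.16, 3.04 and 3.03 FPKM in controls and 2.25, 2.75 and 2.34 FPKM in cKO and fell to 79.5% of control with an adjusted p of 0.047. This call was lost without any library other than cKO replicate 2 (adjusted p of 0.1 to 0.12). Col9a2 measured 8.97 and 8.77 FPKM on average and was not called (adjusted p of 0.72). Outside collagen IX, Col16a1, found in the papillary dermis and other fibroblast-rich sites, measured 2.74, 2.8 and 3.1 FPKM in controls and 3.52, 3.44 and 3.77 FPKM in cKO and rose with an adjusted p of 0.034. Its call was lost without any library other than control replicate 3 (adjusted p of 0.061 to 0.098). Col12a1, at 2.32 and 2.51 FPKM, was not called (adjusted p of 0.4).

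Of the membrane-spanning collagens Col23a1 measured 12.3, 11.3 and 12.1 FPKM in controls and 14.1, 13.3 and 12.9 FPKM in cKO, without overlap but not called (adjusted p of 0.057), and Col13a1 measured 1.36 and 1.68 FPKM on average (adjusted p of 0.26). The 19 members below the filter had means over the 6 libraries of 0.0081 to 0.912 FPKM. Those nearest to it were Col11a2 at 0.778 and 1.05 FPKM, Col14a1 at 0.729 and 0.802 FPKM, Col8a1 as given above, and Col7a1, for the anchoring fibril of skin, at 0.499 and 0.617 FPKM. The lowest was Col10a1, the collagen of hypertrophic cartilage, with 0 to 2 reads per library. In the fit with no filter none of the 19 was called, and their adjusted p-values began at that of Col8a1.

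The chains are hydroxylated, folded, cut and cross-linked by a set of enzymes and chaperones. Of 25 tested genes of collagen synthesis and processing 5 rose and none fell, beside 13.4% and 5.74% of all tested genes, with a median difference of 0.05. Those were Pxdn, whose product peroxidasin forms the sulfilimine cross-links of collagen IV (11.4 to 14.1 FPKM, adjusted p of 0.0051), the lysyl hydroxylase genes Plod1 (7.05 to 8.9 FPKM, adjusted p of 0.008) and Plod2 (9.13 to 11.4 FPKM, adjusted p of 0.0097), Adamts14, for a procollagen N-proteinase (4.75 to 6.86 FPKM, adjusted p of 0.0085), and the galactosyltransferase gene Colgalt2 (1.46 to 2.004 FPKM, adjusted p of 0.032). The collagen chaperone gene Serpinh1 measured 127 and 131 FPKM and the prolyl hydroxylase subunit gene P4hb 158 and 154 FPKM, and neither was called (adjusted p of 0.5 and 0.64).

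Receptors for these proteins rose in part. Of 21 tested receptors 10 rose and 1 fell, beside 13.4% and 5.74% of all tested genes, with a median of 0.20. Only 2 rises were left without control replicate 2, 3 without cKO replicate 2, 5 without control replicate 3 and 6 without cKO replicate 3. Over all tested genes the rises in these fits numbered 958, 859, 1056 and 1110, against 1813. The laminin receptor subunit gene Itga6 rose from 7.29 to 9.45 FPKM (adjusted p of 0.0054) and Itgb1, the beta 1 integrin shared by most matrix receptors, from 71 to 82.5 FPKM (adjusted p of 0.028). The gene of the fibronectin receptor subunit Itga5 rose from 4.01 to 5.72 FPKM, Itgb8 from 4.23 to 6.05 FPKM, the syndecan gene Sdc4 from 4.03 to 5.29 FPKM and the collagen receptor gene Ddr1 from 54.9 to 63.7 FPKM, with adjusted p-values between 0.0056 and 0.019. Dag1, for dystroglycan, the receptor of laminins and agrin, rose from 44.5 to 49.7 FPKM (adjusted p of 0.03). The fall was that of Itga7, another laminin receptor subunit, from 17.6 to 15.3 FPKM (adjusted p of 0.024), and it was left only in the fit without control replicate 1 among those that leave out a library. Among the 10 rises Itga1 had a control mean of 0.861 FPKM and a cKO mean of 1.36 FPKM, so it reached the filter through the cKO libraries alone. Itga1, Itgb1, Dag1 and Itga7 were named after their values were seen.

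Among 23 tested proteases and their inhibitors 11 rose and 3 fell, beside 13.4% and 5.74% of all tested genes, with a median of 0.18. The rises numbered 5 without control replicate 2 or without cKO replicate 2, 6 without control replicate 3 and 7 without control replicate 1. Over all tested genes the rises in those fits numbered 958, 859, 1056 and 1321, against 1813. No fall was left without control replicate 2 or 3 or without cKO replicate 2 or 3, and 2 were left without control replicate 1. The gelatinase genes Mmp2 and Mmp9, whose products cut collagen IV, rose from 3.24 to 4.52 FPKM and from 1.57 to 2.39 FPKM (adjusted p of 0.0052 and 0.0087). Mmp17, the cathepsin gene Ctsb and the protease inhibitor gene Serpine2 rose from 2.68 to 4.17 FPKM, 88.8 to 105 FPKM and 20.2 to 24.5 FPKM, with adjusted p-values of 0.0064, 0.0054 and 0.0053.

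Of 26 tested genes for other basement membrane and matrix proteins 10 rose and 2 fell, beside 13.4% and 5.74% of all tested genes, with a median of 0.11. The rises numbered 5 without control replicate 2 or without cKO replicate 2, and 1 of the falls was left without control replicate 2 or 3 or without cKO replicate 1 or 3. Vwa1, whose product binds perlecan, rose from 12.2 to 18.8 FPKM (adjusted p of 0.0019), Fbln2, for fibulin-2, from 14.4 to 17.8 FPKM (adjusted p of 0.0043), Sparc, for a collagen-binding glycoprotein, from 151 to 179 FPKM (adjusted p of 0.0095) and Egflam, for the dystroglycan ligand pikachurin, from 2.28 to 3.22 FPKM (adjusted p of 0.011). Ntn4, whose product netrin-4 binds laminin gamma chains and disrupts laminin networks, fell from 18.8 to 14.3 FPKM (adjusted p of 0.0029).

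Marker levels of several cell types differed between the groups as well. Of 10 granule cell progenitor markers none rose and 4 fell, beside 13.4% and 5.74% of all tested genes. Their summed level was 1301 to 1402 FPKM in control and 1070.0 to 1099 FPKM in cKO libraries. Atoh1, which defines these progenitors, was present at 37.5 and 35 FPKM. All 18 endothelial markers had all cKO values above all control values, beside 27.3% of all tested genes, and 17 were called higher, beside 13.4%. Their median difference was 0.64 and their summed level 182 to 198 FPKM in control and 315 to 329 FPKM in cKO libraries. Pericyte and smooth muscle markers rose in 10 of 11 tested cases, beside 13.4% of all tested genes, with a median of 0.45. Their sum was 88.5 to 89.3 FPKM in control and 129 to 132 FPKM in cKO libraries. The endothelial sum rose 1.69-fold and the pericyte sum 1.47-fold, more than the basement membrane sum. Among fibroblast and meninges markers, by contrast, 5 of 14 differences were above 0, with a median of -0.13. Their sum was 148 to 156 FPKM in control and 132 to 146 FPKM in cKO libraries. The groups separated without overlap downward in 6 of the 14 and upward in 3, beside 13.2% and 27.3% of all tested genes. Called were 1 rise (Foxc1) and 2 falls (Mgp and Crabp2), beside 5.74% of all tested genes for falls and 13.4% for rises. These calls were few and changed with the library left out: no fall was left without cKO replicate 1, control replicate 2 or control replicate 3, 1 was left without control replicate 1 or cKO replicate 3, and the rise of Foxc1 was left only without cKO replicate 3 or control replicate 3.

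Astroglial markers had a median of 0.22 and a sum of 1209 to 1245 FPKM in control and 1265 to 1328 FPKM in cKO libraries. They rose in 5 of 12 cases, beside 13.4% of all tested genes. The count was 3 without control replicate 2 or without cKO replicate 2. Among the remaining lists the summed level of microglia markers was 222 to 225 FPKM in control and 258 to 309 FPKM in cKO libraries, that of oligodendrocyte lineage markers 113 to 119 FPKM in control and 144 to 159 FPKM in cKO libraries, that of erythroid markers 1210.3 to 1475 FPKM in control and 1655 to 1886 FPKM in cKO libraries, that of GABAergic interneuron markers 79.9 to 86.8 FPKM in control and 103 to 111 FPKM in cKO libraries and that of Purkinje cell markers 10.3 to 11.8 FPKM in control and 13.7 to 14.4 FPKM in cKO libraries. Called higher were 5 of 11 microglial, 6 of 7 oligodendrocyte lineage, 4 of 5 erythroid, 6 of 7 GABAergic and 3 of 4 Purkinje cell markers, beside 13.4% of all tested genes. Of the GABAergic markers 1, Lhx1, was lower, beside 5.74% of all tested genes. The Purkinje count was 1 without control replicate 2 or 3 or without cKO replicate 1 or 3, and 2 without control replicate 1 or cKO replicate 2, and the erythroid count was 2 without control replicate 2. No marker of these lists was at 0 in any library. The part of other cell types in the rise of the basement membrane and fibrillar genes was not tested.

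**Figure D5:**
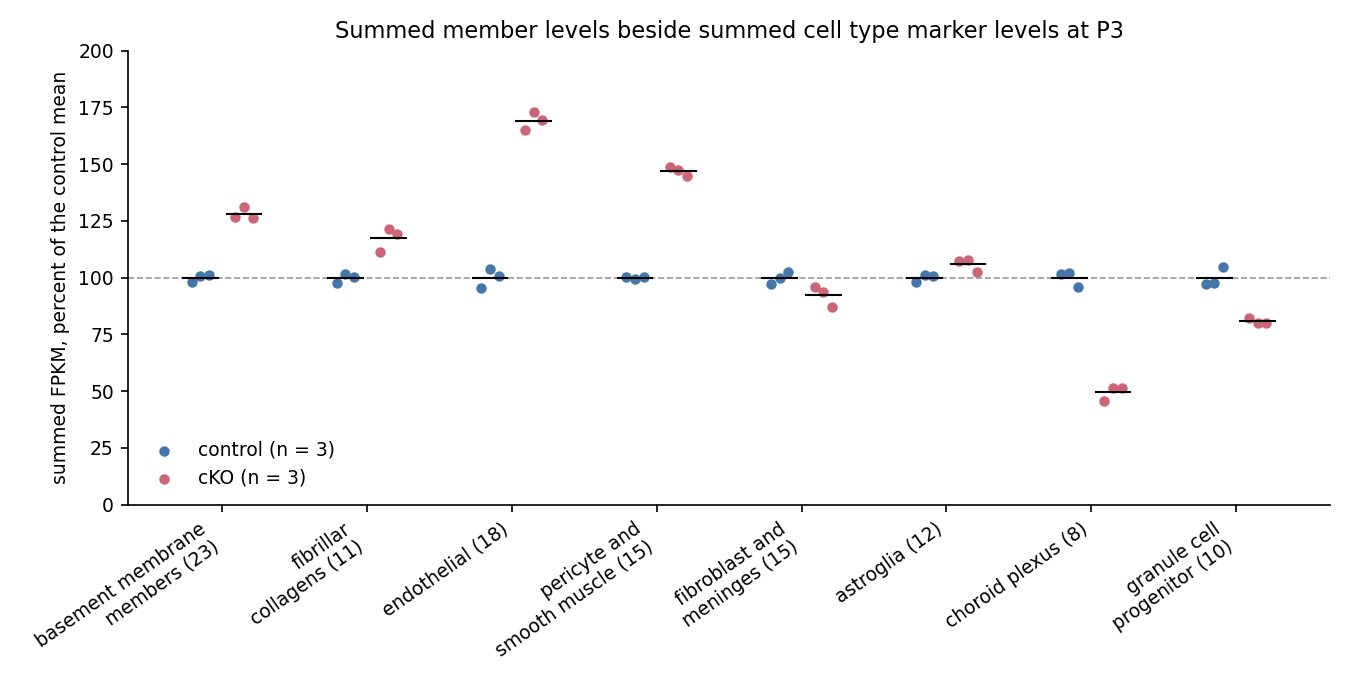
Summed FPKM of the basement membrane and fibrillar members and of 6 marker lists in each library at P3, as a percentage of the control mean, with the number of genes in brackets and group means as bars. The basement membrane sum rose 1.28-fold, the endothelial sum 1.69-fold and the pericyte sum 1.47-fold. The cKO sums of the choroid plexus, the progenitor and the fibroblast and meninges markers lie below the control points.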

How the data were processed

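Poly(A) RNA was made into libraries with a dUTP-marked second strand and sequenced from both ends, per the labels' protocols. Tools named by the submitters' processing notes, without their roles, are HISAT2 2.2.1, cutadapt 1.9, StringTie 2.1.6, edgeR and DESeq2, and the build is mm10. Which annotation, filters and strand setting they used is not given in the sources used here. The authors deposited 1 P3 table with FPKM values per library. Per the file headers it also holds the authors' mean signal, log2 fold change with its error, test score, p-value and adjusted p-value. Columns with the prefix ZM were taken as cKO because the rest begin with WT and cKO is the remaining P3 group in the labels. FPKM times the deposited length gave whole reads within 0.02 for every value, from which depths were computed, and 3 reads in a 1 kb gene correspond to 0.0566 to 0.103 FPKM. That floor includes no error beyond counting. Of the 60 members 3 had the start and end of the GRCm38 annotation and 59 its span. The deposited positions of most members are thus not those of GRCm38, and the build they follow is not stated here.

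For testing, limma 3.58.1 (R 4.3.3) with its intensity trend was applied to log2(FPKM + 1) of the 13538 genes averaging 1 FPKM or more, and p-values were adjusted by Benjamini-Hochberg. Replicate pairs differed beyond counting noise (chi-square per degree of freedom 4.38 to 9.71). The members, classes and lists were chosen with earlier results of these data known. 1 member is not reported by name here. The list entries Leprel4, Lepre1 and Mmp3 were not matched. Named were all called members, the 3 most abundant of each class, those just below the filter and up to 5 called genes per pathway list by smallest p. Genes outside that rule were named after their values were seen, among them Xist, the Y-linked genes, Serpinh1, P4hb, Atoh1 and the named markers. Alternatives were another pseudocount, filters, scalings, removal of a length trend, no trend, array weights, voom on recovered reads, a replicate block, protein-coding genes only and leaving out each library.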

Additional observations from a re-analysis of the deposited data

How the results depend on the processing

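Under 18 alternatives the number of basement membrane members called lay between 9 and 16, all higher, and no called member changed direction. The lowest count came with a minimum of 5 FPKM, which tests fewer genes. Leaving out each library gave 12 to 13 basement membrane, 3 to 4 fibrillar and 1 to 3 other members, and 1207 to 2195 genes over the table, against 2590. Fibrillar calls numbered 5 with voom. Calls in the last division numbered 1 at a minimum of 5 FPKM, 0 with no filter, and 2 each with quantile normalization, removal of the length trend and the replicate block, so those 6 calls depended on the setting. With no filter 1271 genes were called. The replicate block gave 1542 genes, but same-numbered libraries did not deviate together (correlations of -0.02, 0.04 and -0.10), so they share only a number. Of the genes called, 2448 of 2997 were higher with TPM scaling and 1083 of 1906 with quantile normalization, against 1813. Without control replicate 2 or 3 1331 and 1490 genes were called, and without cKO replicate 2 or 3 1207 and 1553. The median difference was 0.27 to 0.38 for the basement membrane, 0.083 to 0.22 for the fibrillar and -0.030 to 0.18 for the other members. Some medians changed sign: at a minimum of 5 FPKM that of the last division was -0.030 and that of the collagen VI to XXVIII class -0.075, and the FACIT median was 0.0074 with TPM scaling, 0.0092 with array weights and -0.070 to 0.00011 with 1 library left out, the highest without cKO replicate 3. The cause was not tested. Members below 1 FPKM were tested only in the fit with no filter.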
